A study of Oryctolagus cuniculus with 6 samples.

Results

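The chaperones of the endoplasmic reticulum (ER) and the KDEL receptors were followed as 9 genes: the receptors KDELR3 and KDELR2, the chaperones HSPA5, HSP90B1, CALR and CANX, and the disulfide isomerases PDIA3, PDIA4 and PDIA6. They were picked by name out of 10001 gene symbols on the array, and all 9 had at least 1 probe, 30 probes in all. RNA came from smooth muscle cells freed enzymatically from the basilar arteries of female New Zealand White rabbits. In the ligated group (3 arrays, called hemodynamic insult in the labels) both common carotid arteries had been tied off 5 days earlier, which raises flow through the basilar artery. In the sham group (3 arrays) the carotid arteries had been exposed and not tied, and the cells were taken on the same day 5. The labels give 3 rabbits a group and do not say whether any array held pooled rabbits.

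Proteins that fold in the ER lumen would leave it with the secretory traffic if they were not fetched back. KDEL receptors sit in the early Golgi, bind the C-terminal KDEL-type tetrapeptide of escaped chaperones and return them to the ER in COPI vesicles. HSPA5 (BiP) is the HSP70 of the ER and HSP90B1 (GRP94) its HSP90, CALR and CANX hold glycoproteins through their sugars, and the disulfide isomerases form and reshuffle disulfide bonds. In vessel walls this machinery serves cells that secrete collagen and other matrix proteins, and several of its genes are textbook targets of the unfolded protein response.

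The probes that carry the results are printed from 5′ to 3′ as the array files give them. The first set holds 1 probe for each KDEL receptor, since the 3 paralogs are similar enough that their signals could be mixed. In the KDELR3 probe the capitals mark the stop codon, and in the KDELR2 and KDELR1 probes they mark the bases that differ from KDELR3 at the aligned place.
KDELR3: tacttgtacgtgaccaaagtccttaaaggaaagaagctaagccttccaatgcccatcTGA
KDELR2: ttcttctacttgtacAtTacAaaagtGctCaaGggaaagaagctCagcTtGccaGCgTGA
KDELR1: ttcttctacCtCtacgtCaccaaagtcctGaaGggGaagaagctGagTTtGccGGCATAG
The KDELR3 and KDELR2 probes were the same at 40 of the 54 bases that overlap, with 11 bases in the longest shared run. KDELR3 and KDELR1 shared 37 of 54 bases, and KDELR2 and KDELR1 shared 46 of 60. The files place the KDELR3 probe at chr4:84676522-84677246 on the minus strand of oryCun2, where its 60 bases are spread over 725 bases of genome. Each of KDELR3, KDELR2 and CALR had 5 probes with at least 56 bases in common, so these probes repeat 1 measurement rather than adding others.

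The second set shows genes whose probes read separate stretches of the transcript. The 3 HSPA5 probes form a chain, and the capitals mark the 20 bases that a probe shares with the end of its upstream neighbour.
HSPA5 upstream probe: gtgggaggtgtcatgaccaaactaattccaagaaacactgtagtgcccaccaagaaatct
HSPA5 middle probe: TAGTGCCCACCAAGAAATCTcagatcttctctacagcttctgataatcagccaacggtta
HSPA5 downstream probe: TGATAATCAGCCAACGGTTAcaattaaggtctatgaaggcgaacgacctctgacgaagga
For PDIA3 the 2 probes read the end of the coding sequence (last 4 codons and stop codon in capitals, chr17:28566826-28566885, minus strand) and the stretch just upstream of it (chr17:28566886-28567164, minus strand).
PDIA3 tail probe: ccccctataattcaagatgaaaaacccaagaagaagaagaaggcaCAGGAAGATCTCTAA
PDIA3 upstream probe: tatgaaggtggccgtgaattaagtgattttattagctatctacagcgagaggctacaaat
For PDIA4, 5 overlapping probes cover a thioredoxin-type active site (its first codons in capitals, chr7:3013906-3015537, plus strand) and 2 others lie downstream of it (the 1 shown at chr7:3022119-3022178, plus strand).
PDIA4 active-site probe: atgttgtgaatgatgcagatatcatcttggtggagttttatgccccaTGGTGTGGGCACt
PDIA4 downstream probe: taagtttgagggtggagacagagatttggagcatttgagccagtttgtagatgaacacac

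Signals are given as log2 of the processed signal minus the 75th percentile of the same array, so a value of 0 lies at that percentile. Between 58.7% and 63.7% of probes were well above background on the 6 arrays. Over the 27410 tested probes, sham arrays 2 and 3 differed from each other by an SD of 0.38 in log2, against 0.61 for the closest other pair (ligated 1 and 2) and 1.51 for the farthest (ligated 1 and sham 3). The arrays also stood apart across the groups. Sham array 1 was closer to ligated arrays 1 (1.05) and 2 (0.92) than to sham arrays 2 and 3 (1.28 each), and ligated array 3 was closer to sham array 2 (0.96) than to ligated array 1 (1.02). The T cell gene CD2 followed that split, at -4.47, -3.24 and -0.13 in ligated arteries and -4.75, 0.28 and 0.28 in sham arteries. The labels do not say whether sham arrays 2 and 3 came from separate rabbits, and if they did not, the sham group holds 2 samples. With those 2 sham arrays averaged into 1, none of the 9 genes kept its call, with 3 at an unadjusted p under 0.05, although the log2 changes of KDELR3 (3.77) and HSPA5 (0.97) were similar. The ligated arrays all lay on slide 2 and the sham arrays on slide 1, and the design gives no way to tell the 2 apart. In limma with Benjamini-Hochberg adjustment, 2290 of 27410 probes (8.35%) passed an adjusted p of 0.05 (5.71% of the tested probes in the higher direction), and 68.3% of those that passed were higher in ligated arteries. That share was 52.2% when arrays were scaled on their medians and 56.4% when normexp background correction was used without high-background spots. As reported, 7498 of the 27410 tested probes had an unadjusted p under 0.05, so counts at that level are to be read beside this share.

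Several lists of cell type markers moved with the groups. Of 9 smooth muscle markers tested, 2 fell (SMTN by 1.77 and DES by 1.11 in log2) and 6 had an unadjusted p under 0.05, with a median log2 change of -1.01. The list's summed level was 362 to 1023 in ligated and 861 to 1577 in sham arteries, relative to the 75th percentile. Fibroblast and meninges markers rose in 5 of 8 genes, with sums of 1163 to 1261 in ligated and 492 to 583 in sham arteries. These sums mostly follow COL1A2, the brightest of the list (9.72, 9.46 and 9.89 in ligated and 7.73, 8.30 and 7.83 in sham arteries). The 3 that did not pass were OGN (-0.31 in log2), DCN (0.36) and DPT (1.97). Of 10 genes of dividing cells 9 rose, with a median log2 change of 3.49 over the list. The sums were 23.6 to 32.2 in ligated and 11.0 to 13.1 in sham arteries. Most of the sham sum came from PCNA (3.51, 3.18 and 3.28), the gene that did not rise (-0.04), so the sums understate the shift of the others. None of the 6 macrophage markers passed (1 at an unadjusted p under 0.05), with sums of 8.75 to 32.6 in ligated and 8.97 to 19.3 in sham arteries. None of the 2 plasma and B cell markers tested passed either (0 at an unadjusted p under 0.05), with sums of 0.211 to 0.463 in ligated and 0.359 to 3.27 in sham arteries. No marker of endothelium (5 tested), T cells (6), neutrophils (4), red cells (3), neurons (1) or glia (1) passed, with 0, 0, 1, 0, 0 and 1 at an unadjusted p under 0.05. All these marker counts rest on the brightest probe of each gene. Over all tested probes, 3 of 5 passed for S100B (glia), 1 of 3 for SYT1 (neurons) and 4 of 6 for DCN (fibroblasts), none of which passed on its brightest probe. For DES, which did, 1 of 2 passed. SLC4A1 of red cells, GAD1 of neurons and GFAP and AQP4 of glia were not well above background on any array. The sums were 28.5 to 668 in ligated and 189 to 389 in sham arteries for red cells, and 0.658 to 3.96 in ligated and 0.539 to 4.22 in sham arteries for T cells. The part of these shifts in the results below was not tested, and a change in the share of a cell type cannot be told apart from a change in RNA per cell.

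Among the 9 genes, KDELR3 and HSPA5 passed the threshold, both higher in ligated arteries, and none passed in the lower direction. The share of all 7556 named genes that passed in the higher direction was 6.21%, and 2.69% passed in the lower direction. Since the genes were chosen with their changes in ligated arteries known, their changes are a description and carry no p-value here. The median log2 change of the 9 genes was 0.75, against 0.01 for all named genes, and 7 of the 9 were positive, as were 3805 of the 7556 named genes. In 5 of 9 genes (KDELR3, KDELR2, HSPA5, PDIA3 and PDIA6) every ligated array was above every sham array, as it was in 17.8% of named genes. No gene of the 9 had every ligated array below every sham array, which held for 17.6% of named genes.

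**Figure D1:**
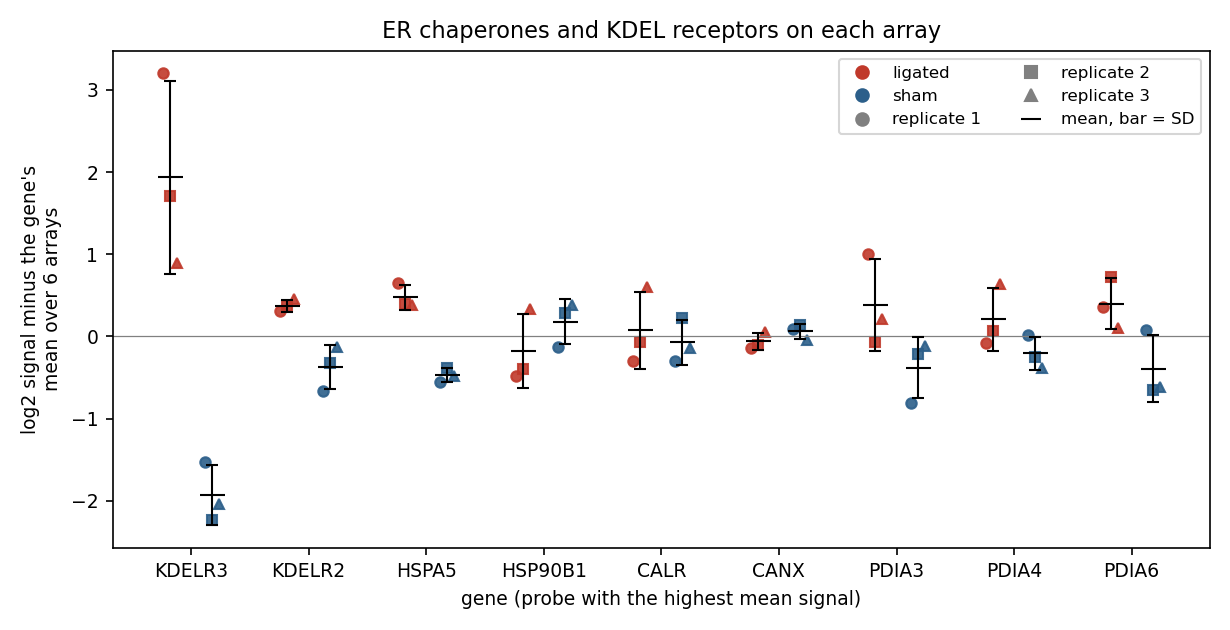
Normalised log2 signal of each of the 9 genes on each array, minus the gene's own mean over the 6 arrays, for the probe with the highest mean signal. Ligated arrays (red) stand left of sham arrays (blue), symbols mark the replicate number, and black marks give the mean with its SD (n = 3). KDELR3 spans the widest range, and KDELR2, HSPA5, PDIA3 and PDIA6 also have all ligated points above all sham points.

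KDELR3, a receptor paralog known as a target of the unfolded protein response, was read at 4.36, 2.86 and 2.05 in ligated arteries, against -0.37, -1.07 and -0.89 in sham arteries. The processed signals behind these values were 3715, 1823 and 651 in ligated arteries and 172, 98.5 and 121 in sham arteries. Every ligated array was thus above every sham array, and the ligated arrays were far apart from each other. The log2 change was 3.87 ± 0.57 (SE, 95% interval 2.50 to 5.24), which is 14.6-fold. All 5 overlapping probes passed, with log2 changes from 3.80 to 3.90. The SD among ligated arrays was 1.17, higher than in 97.2% of named genes, while among sham arrays it was 0.37, higher than in 67.4% of them. KDELR3 passed under 13 of 19 alternative settings, with log2 changes from 2.41 (normexp background correction) to 4.39. Of the 19, the block on scan day and the fit without sham array 3 are 1 and the same comparison. Only that array was scanned on another day. Quantile normalisation and the deposited value table gave nearly the same values (3.95 in both) and are not separate checks. KDELR3 did not pass without ligated array 2 (3.98), sham array 2 (3.72) or sham array 3 (3.81).

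KDELR2, a paralog with the same retrieval task, was read at 1.77, 1.83 and 1.91 in ligated arteries, against 0.80, 1.13 and 1.33 in sham arteries. The ligated arrays lay close together, with an SD of 0.07 that was higher than in 3.14% of named genes, and the groups did not overlap. Its log2 change was 0.75 ± 0.20 (95% interval 0.26 to 1.24), 1.68-fold, and did not pass. Of its 5 overlapping probes, with log2 changes from 0.75 to 0.85, 1 passed. Over 18 alternative settings the brightest probe passed under 1 and each of the other 4 under 6.

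KDELR1, the third receptor and not one of the 9 genes, was read at 2.97, 3.00 and 3.14 in ligated arteries and 2.49, 2.75 and 2.68 in sham arteries. Its groups did not overlap either, and its log2 change of 0.40 ± 0.18 had an adjusted p of 0.208 in limma. Before scaling, its signals did overlap (1420, 2009 and 1388 in ligated and 1242, 1398 and 1433 in sham arteries). The 3 receptors thus had log2 changes of 3.87, 0.75 and 0.40 on the same arrays, all positive, although the probes of KDELR3 and KDELR2 share most of their aligned bases. Differences between these changes were not tested.

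HSPA5, which binds unfolded chains in the ER lumen and holds the stress sensors inactive, was read by its upstream probe at 3.56, 3.30 and 3.29 in ligated arteries, against 2.35, 2.52 and 2.42 in sham arteries. The middle probe gave 3.13, 3.28 and 3.03 in ligated arteries and 2.42, 2.22 and 2.33 in sham arteries. The downstream probe gave 2.56, 2.65 and 2.51 in ligated arteries and 1.88, 1.77 and 1.81 in sham arteries. On all 3 probes the groups were apart and each group was tight. The log2 changes were 0.95 ± 0.18, 0.82 ± 0.18 and 0.76 ± 0.17 along the transcript, or 1.93-, 1.77- and 1.69-fold, and all 3 probes passed. HSPA5 passed under 8 of 19 alternative settings, with log2 changes from 0.72 to 1.08. It did not pass without ligated array 1 (0.86) or 2 (0.99), or without sham array 1 (0.91), 2 (0.99) or 3 (0.94).

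HSP90B1, the ER HSP90 that folds integrins and Toll-like receptors, was read at 5.04, 5.12 and 5.85 in ligated arteries and 5.39, 5.79 and 5.90 in sham arteries. The groups overlapped, and ligated array 3 was close to the sham arrays. Its log2 change was -0.36 ± 0.28 (95% interval -1.04 to 0.32) and did not pass. It was -0.05 under quantile normalisation and -0.04 in the deposited value table, which are not separate checks. The change was -0.56 under median scaling, -0.21 without ligated array 1 and -0.61 without ligated array 3. HSPA5 and HSP90B1 are both textbook targets of the same stress response, and the difference between their changes was not tested.

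CALR, the soluble lectin chaperone that also buffers ER calcium, was read at 8.34, 8.57 and 9.24 in ligated arteries and 8.34, 8.87 and 8.50 in sham arteries. The groups overlapped almost fully. Its 5 probes had log2 changes from 0.14 to 0.20, and the brightest gave 0.15 ± 0.29 (95% interval -0.55 to 0.84). The sign turned under median scaling (-0.05), with array weights (-0.02) and without ligated array 3 (-0.11). No probe was saturated on any array.

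CANX, the membrane-anchored lectin chaperone, was read at 0.25, 0.29 and 0.45 in ligated arteries and 0.48, 0.53 and 0.35 in sham arteries. Its groups overlapped too, with a log2 change of -0.12 ± 0.17 (95% interval -0.54 to 0.29). CANX is anchored in the membrane and does not carry a KDEL signal, and both lectin chaperones had intervals that included 0.

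PDIA3, the isomerase that works with CALR and CANX on glycoproteins, was read by its upstream probe at 4.31, 3.23 and 3.52 in ligated arteries, against 2.50, 3.09 and 3.19 in sham arteries. The tail probe gave 1.00, 1.33 and 1.68 in ligated arteries and 0.90, 1.16 and 0.97 in sham arteries. The groups were apart on the upstream probe by a narrow gap, which the unscaled signals (3596, 2361 and 1802 in ligated and 1252, 1767 and 2037 in sham arteries) did not show, and overlapped on the tail probe. Ligated array 1 was the highest of the ligated arrays on the upstream probe and the lowest of them on the tail probe. The log2 changes were 0.76 ± 0.34 (95% interval -0.06 to 1.58) and 0.33 ± 0.23 (95% interval -0.22 to 0.88), and neither passed. The upstream value was 0.45 without ligated array 1.

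PDIA4, an isomerase often found in complex with HSPA5, was read by the active-site probe shown above at 1.03, 0.63 and 0.84 in ligated arteries and -0.08, 0.50 and 0.58 in sham arteries. The downstream probe gave 1.45, 1.59 and 2.17 in ligated arteries and 1.55, 1.28 and 1.14 in sham arteries. Sham array 1 was the lowest sham array on the first and the highest on the second, so only the active-site probes separated the groups. Before scaling, the active-site probe shown did not separate them either (282 on ligated array 3 against 335 on sham array 3). The 5 active-site probes had log2 changes from 0.50 to 0.64, and the 2 downstream probes had 0.41 ± 0.25 and 0.54 ± 0.27. None of the 7 probes passed. The first downstream value was 0.19 under normexp background correction, 0.21 under median scaling and 0.20 without ligated array 3.

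PDIA6, an isomerase that attenuates the stress sensor IRE1, was read at 1.74, 2.11 and 1.49 in ligated arteries, against 1.46, 0.73 and 0.77 in sham arteries. The groups were apart only by the gap between ligated array 3 and sham array 1. Before scaling, the processed signals were 605, 1085 and 440 in ligated arteries and 609, 344 and 382 in sham arteries, so there the groups overlapped. The log2 change was 0.79 ± 0.28 (95% interval 0.12 to 1.47) and did not pass. All 30 probes are set side by side in the plot of changes by probe.

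**Figure D2:**
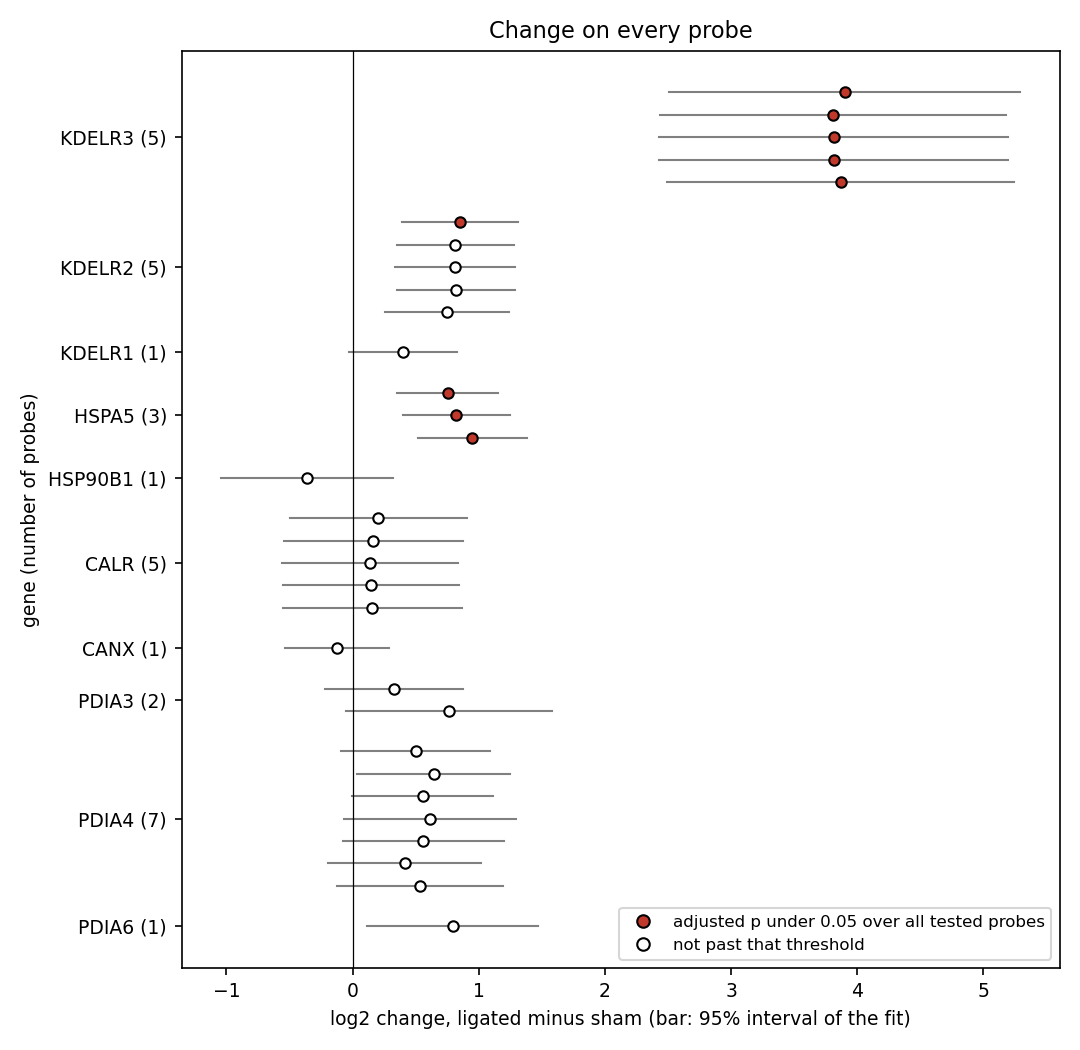
Log2 change (ligated minus sham) of every probe of the 9 genes and of KDELR1, with the 95% interval of the limma fit as a bar; filled points passed an adjusted p of 0.05 over 27410 probes. The 5 KDELR3 probes lie between 3.80 and 3.90, apart from all others, and the intervals of KDELR1, HSP90B1, CALR, CANX, both PDIA3 probes and all but 1 of the PDIA4 probes include 0.

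**Figure D3:**
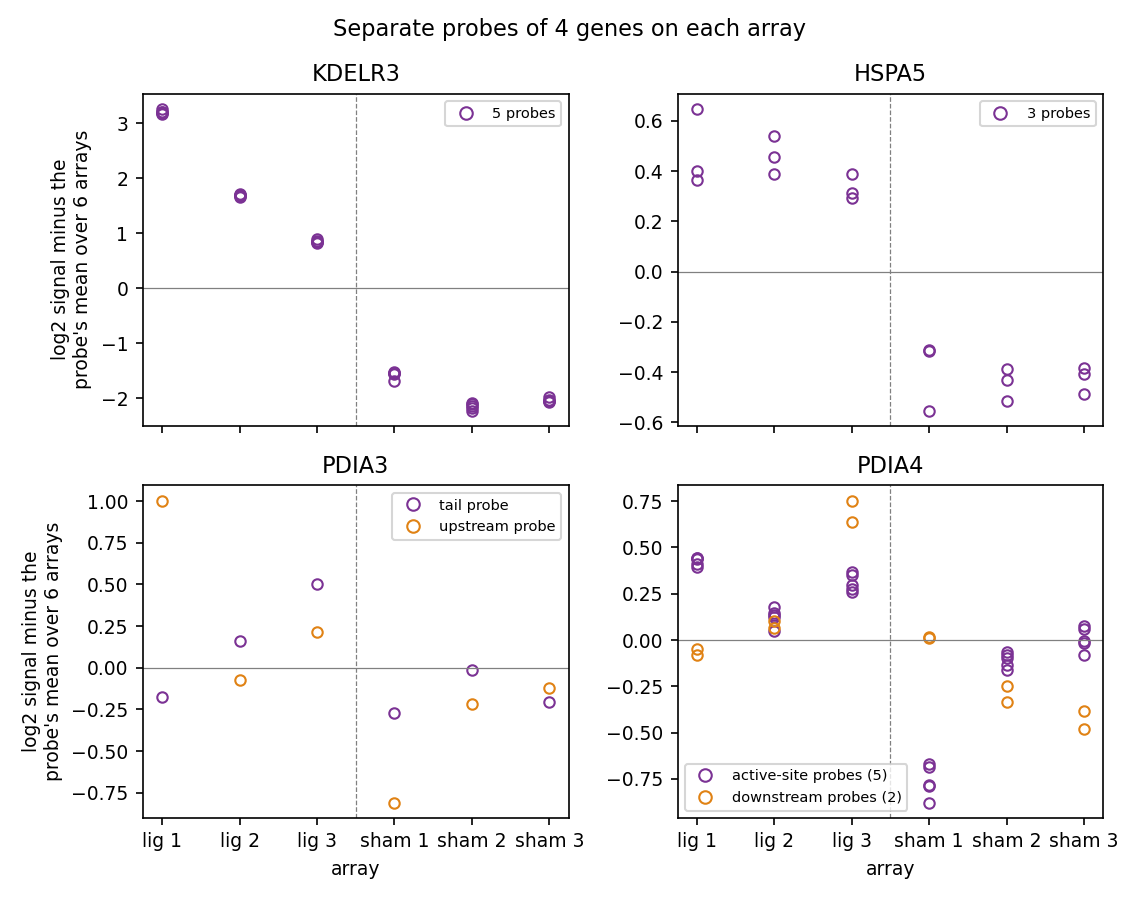
Normalised log2 signal of each probe of KDELR3, HSPA5, PDIA3 and PDIA4 on each array (ligated left of the dashed line, sham right of it), minus the probe's mean over the 6 arrays; each panel has its own vertical scale. Probes of KDELR3 and of HSPA5 order the groups alike, while the 2 PDIA3 probes differ most on ligated array 1 and the 2 sets of PDIA4 probes differ most on sham array 1.

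On their brightest probes the 9 genes did not share an order of arrays within the groups. The highest ligated array was array 3 in 5 genes, array 1 in 3 genes and array 2 in 1 gene, and the lowest sham array was array 1 in 5 genes. Ligated array 3 was the lowest ligated array for KDELR3, HSPA5 and PDIA6, and the highest for KDELR2, HSP90B1, CALR, CANX and PDIA4. Other probes of a gene could give another order. Ligated array 1 was the highest on the active-site probes of PDIA4, and ligated array 2 on the middle and downstream probes of HSPA5. Distances were measured on the brightest probes as the root mean square difference between profiles over the 6 arrays, each taken relative to its own mean. The closest pair was KDELR2 and HSPA5 at 0.21 in log2. The next closest were CALR and PDIA4 at 0.28 and CALR and CANX at 0.29, and KDELR3 was 1.60 or more from each of the other 8 genes.

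Other genes were described with 9 lists of the secretory pathway and 1 list of chaperones outside the ER. In the 9 lists 90 genes were tested, of which 3 rose and 1 fell, 4.44% in all, against 8.89% of named genes in either direction. Of the 90 genes 24 had an unadjusted p under 0.05, a share similar to that of all tested probes (7498 of 27410). The median log2 change of the 90 genes was 0.29. With the list of other chaperones, 3 of 110 genes rose and 2 fell (4.55%). These directions depended on the scaling: with arrays scaled on their medians 0 of the 110 genes passed in the higher and 3 in the lower direction, and the 3 genes that rose lost their calls. With no filter on dim probes, 0 passed in the higher and 1 in the lower direction. Not analysed here for want of a probe with a single symbol were HYOU1, DNAJC3, SDF2L1, MANF, CRELD2, ATF4 and DDIT3, which include the genes most often used with HSPA5 to follow ER stress.

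None of the 12 tested genes that bring escaped proteins back from the Golgi passed. In either direction 5 had an unadjusted p under 0.05, and the list's median log2 change was 0.33. COPZ1, a COPI coat subunit, stood at 0.64 (adjusted p = 0.069 in limma) and the small GTPase ARF4 at 0.90 in log2 (adjusted p = 0.084). Both were higher on every ligated array than on any sham array, although the unscaled signals of ARF4 overlapped (2401 on ligated array 3 against 2972 on sham array 1). ARFGAP2, which helps uncoat COPI vesicles and was named after its values were seen, was lower on every ligated array, at -0.69 (adjusted p = 0.129). None of 11 genes of the opposite, COPII-driven route passed (3 at an unadjusted p under 0.05, median log2 change 0.21). Their smallest p-values belonged to the GTPase SAR1A, at 0.94 in log2 (adjusted p = 0.053), and to the coat subunit SEC24D, at 1.24 (adjusted p = 0.121).

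The list of HSPA5 partners had a median log2 change of -0.01 over 9 genes, with none passing and 1 at an unadjusted p under 0.05. It holds J-domain cochaperones and the exchange factor SIL1, but also SDF2 and the CNPY genes. Its median thus does not describe the ATPase cycle of HSPA5 alone. DNAJB9, a J-domain cochaperone of HSPA5, was read at 2.15, 2.63 and 1.87 in ligated arteries and 3.02, 2.77 and 3.10 in sham arteries. It was thus lower on every ligated array than on any sham array, opposite to HSPA5, with a log2 change of -0.74 ± 0.25 (adjusted p = 0.116). Its unscaled signals overlapped (1558 on ligated array 2 against 1419 on sham array 2). CNPY2 had a log2 change of 0.48 (adjusted p = 0.230).

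Among the other disulfide isomerases and oxidases, 1 of 9 rose, 4 had an unadjusted p under 0.05, and the median log2 change was 0.61. PRDX4, the ER peroxiredoxin that uses hydrogen peroxide to make disulfides, was read at 5.24, 5.49 and 5.34 in ligated arteries, against 4.36, 4.38 and 4.35 in sham arteries. The groups were far apart relative to their spread, and PRDX4 rose by 0.99 ± 0.17 in log2 (limma adjusted p = 0.021). Its call was lost without ligated array 2 (0.93), sham array 2 (1.00) or sham array 3 (0.99). P4HB, the classical isomerase and a subunit of collagen prolyl hydroxylase, had 1.76, 1.80 and 1.27 in ligated arteries and 1.13, 0.46 and 0.52 in sham arteries. Its groups did not overlap, with a log2 change of 0.91 ± 0.27 (adjusted p = 0.087), but its unscaled signals did (379 on ligated array 3 against 484 on sham array 1).

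The procollagen chaperones had the highest median of the 10 lists, 0.78 over 6 genes, of which 2 rose. SERPINH1 (HSP47), which binds the procollagen triple helix and carries its own KDEL-type signal, was read at 2.35, 2.05 and 2.26 in ligated arteries and 1.00, 1.43 and 1.34 in sham arteries. FKBP14, a prolyl isomerase of the ER, was read at 0.75, 0.50 and 0.99 in ligated arteries and -0.41, -0.38 and -0.12 in sham arteries. In both genes the groups were apart, and the log2 changes were 0.96 ± 0.20 for SERPINH1 (limma adjusted p = 0.038) and 1.05 ± 0.21 for FKBP14 (limma adjusted p = 0.031). Of the tested probes 1 of 2 passed for SERPINH1 and 5 of 5 for FKBP14. Averaging all tested probes of a gene ended the SERPINH1 call. Leaving out any 1 array ended both calls, with log2 changes from 0.83 to 1.05 for SERPINH1 and from 0.93 to 1.17 for FKBP14. The collagen genes COL1A1 and COL1A2 of the fibroblast list rose by 3.02 and 1.74 in log2 on the same arrays.

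On the brightest probe of each gene, the stress sensors and their transcription factors all had positive log2 changes, with a median of 0.40 over 9 genes. Of all 7556 named genes 3805 were positive. None of the 9 passed on that probe and 2 had an unadjusted p under 0.05. The 3 sensors had log2 changes of 0.61 for ERN1 (IRE1, adjusted p = 0.464), 0.29 for ATF6 (adjusted p = 0.501) and 0.40 for EIF2AK3 (PERK, adjusted p = 0.527). XBP1, whose mRNA IRE1 splices, had 0.18 (adjusted p = 0.713) and turned to -0.02 under median scaling, and HERPUD1, another stress target, had 0.29 (adjusted p = 0.624). For each of these 5 genes the ligated and sham arrays overlapped. Single arrays moved these values: leaving out 1 array gave 0.08 (without ligated 1) to 0.99 (without ligated 2) for ERN1 and 0.10 (without sham 3) to 0.50 (without sham 2) for ATF6. The ranges were 0.08 (without sham 1) to 0.59 for EIF2AK3 and 0.04 (without ligated 1) to 0.69 (without ligated 3) for HERPUD1. CREB3L1, a membrane-bound factor known for driving collagen genes, was read at -0.31, -1.78 and -2.31 in ligated arteries and -4.57, -2.85 and -3.22 in sham arteries. Its groups did not overlap but were widely spread, at a log2 change of 2.08 ± 0.64 (adjusted p = 0.096). These values are from its brightest probe, and 1 of its 5 tested probes passed. CREB3L1 was well above background on 5 of 6 arrays, and its log2 change was 0.87 and 0.92 under normexp background correction with and without high-background spots. MBTPS2, the protease that releases such factors, had 0.74 (adjusted p = 0.141).

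Of 16 genes for entry into the ER and the first modifications there, 1 fell, 3 had an unadjusted p under 0.05, and the median log2 change was 0.20. SEC11C, a catalytic subunit of the signal peptidase, was read at 4.08, 4.29 and 4.23 in ligated arteries, against 5.30, 5.88 and 6.25 in sham arteries. It was lower on all ligated arrays, with a log2 change of -1.61 ± 0.27 (limma adjusted p = 0.020), and its call was lost without ligated array 1 (-1.55) or 2 (-1.66) or sham array 2 (-1.58) or 3 (-1.39). For its paralog SEC11A, named after its values were seen, the log2 change was 0.12 (adjusted p = 0.737).

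None of 6 genes of the glycoprotein folding cycle passed (1 at an unadjusted p under 0.05, median log2 change 0.41). The cargo lectin LMAN2 had 0.68 (adjusted p = 0.054) and the glucosidase subunit GANAB had 0.52 (adjusted p = 0.203). None of 12 genes of ER-associated degradation passed (2 at an unadjusted p under 0.05, median 0.10), with the lectin ERLEC1 at 0.98 (adjusted p = 0.089) and SELENOK at -0.94 (adjusted p = 0.062). Chaperones outside the ER, in the cytosol and mitochondria, had a median of -0.23 over 20 genes. Of these 1 fell, HSF1, the master factor of the heat shock response, by 1.19 ± 0.26 in log2 (limma adjusted p = 0.040). The HSF1 call was lost when any 1 array was left out, for example at a log2 change of -1.40 without ligated array 2 and -1.07 without sham array 1.

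**Figure D4:**
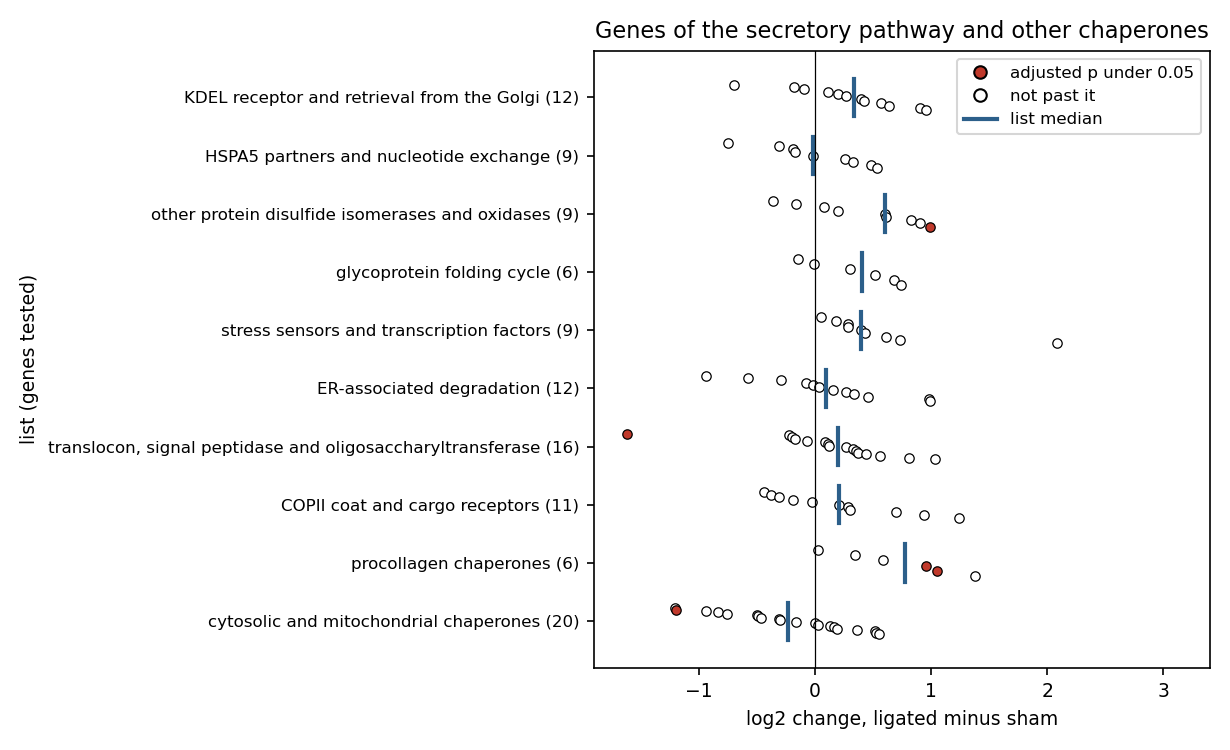
Log2 change (ligated minus sham) of each tested gene of the 9 secretory pathway lists and the list of chaperones outside the ER, 1 point a gene, with the list's median as a blue line and genes past an adjusted p of 0.05 filled. The procollagen list has the highest median (0.78) and the cytosolic and mitochondrial list the lowest (-0.23).

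The named genes whose profiles over the 6 arrays were most like that of KDELR3 were EVA1A (root mean square difference 0.39 in log2), MEDAG (0.39), TMEM63C (0.44), C4H3orf52 (0.47) and BDKRB1 (0.50). EVA1A and TMEM63C were well above background on 3 arrays only, so their sham values, and with them their places in this order, are uncertain. Under normexp background correction without high-background spots their log2 changes were 1.03 and 0.79, against 3.22 and 3.67 as reported, and with a filter on all 6 arrays both dropped out. BDKRB1, the bradykinin B1 receptor, was read at 3.99, 2.81 and 1.77 in ligated arteries and 0.35, -0.25 and -0.19 in sham arteries, the same order of ligated arrays as in KDELR3. HSPA5 ranked 818 and KDELR2 ranked 1341 in likeness to KDELR3 among the named genes. Those most like HSPA5 were MTPN (0.03), CASK (0.08), IL6ST (0.08), SDC3 (0.08) and AHR (0.09). MTPN, a small ankyrin-repeat protein, was read at 1.82, 1.57 and 1.47 in ligated arteries and 0.63, 0.79 and 0.68 in sham arteries. KDELR2 ranked 127 and PDIA3 ranked 514 in likeness to HSPA5, while KDELR3 ranked 7477.

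**Figure D5:**
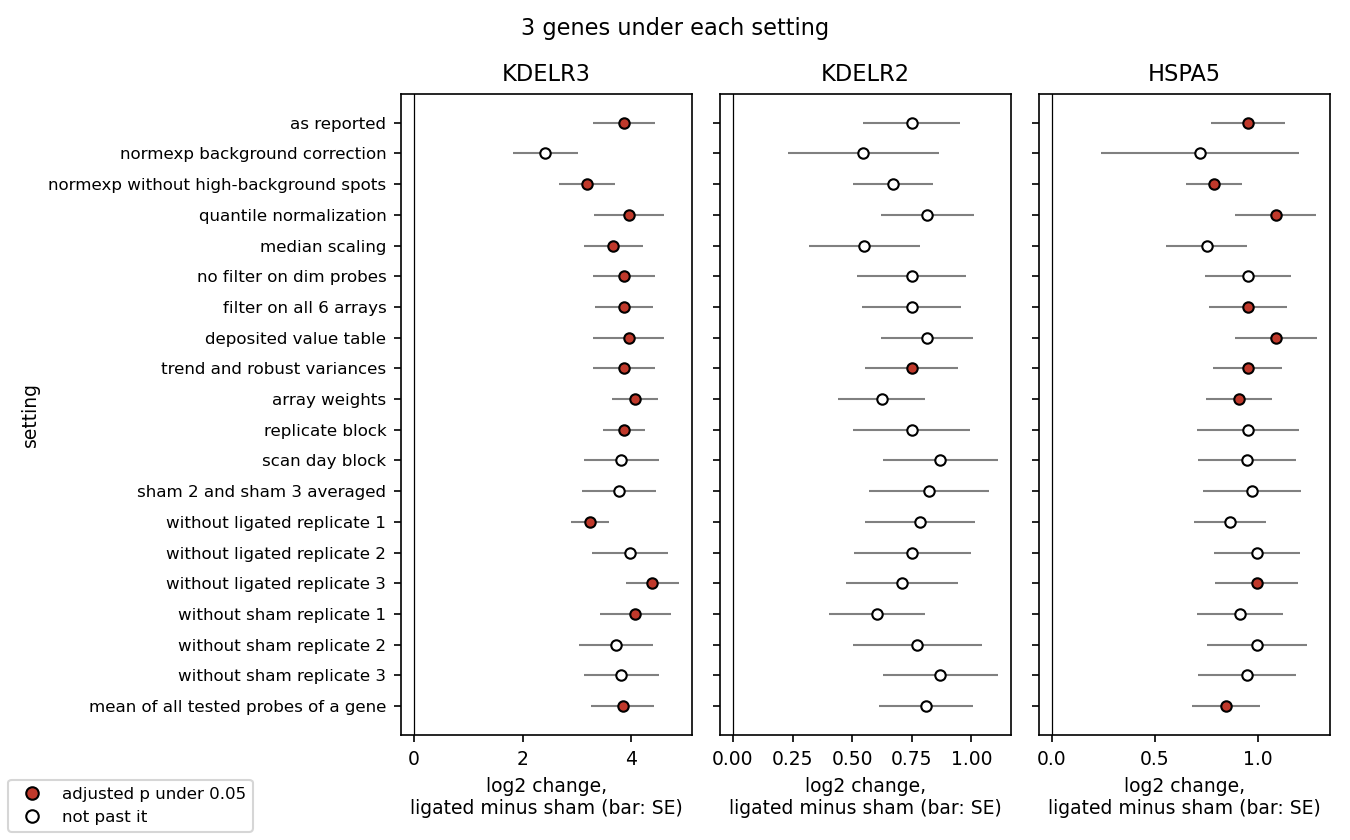
Log2 change (ligated minus sham) of KDELR3, KDELR2 and HSPA5 as reported and under 19 alternative settings, with the standard error of each fit as a bar; filled points passed an adjusted p of 0.05, and each panel has its own horizontal scale. All values are positive, and KDELR3 passes under 13, KDELR2 (brightest probe, the other 4 passing under 6 of 18) under 1 and HSPA5 under 8 of the alternatives.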

How the data were processed

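Per the labels' protocols, RNA was labelled with Cy3 for 6 one-colour Agilent arrays, 1 a sample. The submitters' processing notes name Agilent Feature Extraction 10.7. The processed signal of each spot is, per the file headers, an intensity from which background was subtracted and spatial trends removed, unscaled between arrays; flags of the kind other (0 or 1, per the file headers) mark spots well above background, outlying or saturated. Values of the deposited table are log2, with array medians of 5.05, and correlated at 0.999 or more with the log2 processed signal. The sources used here do not give its making. The deposited table served as an alternative, but its fit nearly repeated that under quantile normalisation (2116 against 2121 probes passing). These 2 alternatives are therefore not separate checks.

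Outlier spots were left out (2, 19 and 16 on ligated and 7, 2 and 13 on sham arrays) and log2 signals were set relative to each array's 75th percentile (a signal of 181, 251 and 157 on ligated and 222, 207 and 224 on sham arrays). After this scaling, 10 spike-in controls had a median log2 difference (ligated minus sham) of -0.81. Probes well above background on at least 3 of 6 arrays were tested (27410 of 43603), with limma 3.58.1 in R 4.3.3 (two-sided, Benjamini-Hochberg adjustment). The test was checked on simulated data with independent noise on each array. That check does not cover the likeness between arrays described above, such as that of sham arrays 2 and 3. P-values and standard errors rest on the spread among 3 arrays a group, which limma moderates with the spread over all tested probes. The number of 3 arrays a group limits the precision.

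Members were matched by the files' gene name or description (26 probes) or gene number (4 probes of HSPA5 and HSP90B1). All 30 were well above background on all 6 arrays. Other genes were named through the files and a RefSeq table of another assembly, used for names only (22492 probes with 1 symbol, 21 with several, 21090 with none). A gene was represented by its brightest probe. Promoter and protein sequences were not used here. The members, lists and tests were chosen with earlier results of these data known. The text names all members, a set of fixed ER genes, per list up to 3 genes that passed (or else the 2 with the smallest p), and the 5 genes nearest to KDELR3 and to HSPA5. Alternatives changed the background correction, scaling, filter, variance model, array weights, blocks and arrays used.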

Additional observations from a re-analysis of the deposited data

How the results depend on the processing

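Calls were few, and their number depended on the settings. As reported, 2 of the 9 genes, 5 genes of the pathway lists and 2290 probes passed. Under normexp background correction the counts were 0, 0 and 0 (limma, with 1, 1 and 645 at an unadjusted p under 0.05), and the median change of all tested probes was 0.21 in log2. Without high-background spots the same correction gave 9 list genes. Median scaling gave 1 of the 9 genes and 3 list genes (0 higher and 3 lower, against 3 higher and 2 lower as reported), and moved the median of all tested probes to -0.19, against 0.01 as reported. With no filter on dim probes the counts were 1, 1 and 1524, and with a filter on all 6 arrays 10 list genes passed. Trended and robust variances gave 10 list genes, and array weights gave 21 list genes and 5980 probes. Same-numbered arrays deviated from their group means with correlations of 0.43, -0.57 and 0.58, while ligated 2 and sham 1 gave 0.55, ligated 3 and sham 2 gave 0.66 and ligated 3 and sham 1 gave -0.68, so the numbers were not taken as pairs. With the replicate block the counts were 1, 1 (a lower one) and 1295. With scan day as a block, which is the same fit as leaving out sham array 3, they were 0, 0 and 552. With sham arrays 2 and 3 averaged they were 0, 0 and 595. Leaving out 1 array at a time gave 0 to 2 of the 9 genes, 0 to 6 list genes and 552 to 2269 probes, with 0 of the 9 genes without ligated array 2 or sham array 2 or 3. Without ligated array 1 the counts were 1, 1 and 1205. SMTN, DES, DCN, S100B, SYT1, COL1A1, COL1A2, CD2, ARFGAP2 and SEC11A were not followed under the alternatives. For the other genes named in the text, 633 values under alternatives stayed on their side of the threshold, 156 lost their call, 25 gained one, and 0 called values changed sign. The 633 include many values of genes that were not called as reported and stayed so, so they do not measure how stable the calls were.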
